A study of Mus musculus with 4 samples.

Results

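The 10 kb of chromosome 17 from 39980001 to 39990000 (mouse build mm9) held 532039 of the 4030538 read placements in 11 sequencing files of oocytes and early embryos. Every placement whose read start fell in the window was taken, whatever its strand or score. A read start is the first base of the 25-base read, which is its lowest coordinate on the plus strand and its highest on the minus strand. The window was selected on its number of reads in these files, so its share of each file and its rank among windows describe the choice and were not tested.

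The series holds nanoCAGE reads of the fully grown oocyte, the 2-cell embryo at 48 h, the 8-cell embryo at 68 h and the blastocyst at 92 h. All came from F1 mice of C57BL/6J crossed with CBA/H. No treatment or mutation is named in the labels. NanoCAGE selects capped RNA ends from small amounts of RNA, and the first base of a read then marks the 5′ end of an RNA. Each stage is 1 sample read in 3 runs, or in 2 for the 2-cell embryo, which the files number 1.1, 1.2 and 2 (1 and 2 for the 2-cell embryo). Nothing in the labels ties a run to its own pool of cells. Runs were therefore not taken as replicates, and stages were compared without a test. The placements lie within annotated repeats, and the files hold no gene names by which the labelled stages could be checked.

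Ribosomal RNA genes are transcribed by RNA polymerase I as a long precursor that is cut and trimmed into the mature 18S, 5.8S and 28S RNAs. The active genes lie in tandem arrays on several chromosomes, and a genome assembly also holds stray copies outside those arrays. Transcripts of RNA polymerase II receive a cap, whereas ribosomal RNA carries none, and a mature ribosomal RNA begins where a nuclease cut the precursor. Fully grown oocytes store large amounts of ribosomes and ribosomal RNA. In the mouse, zygotic ribosomal RNA synthesis starts around the 2-cell stage and rises through cleavage.

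The window had been given a working name that likens it to the ribosomal precursor. No gene annotation or genome sequence of build mm9 was used here, so that name was not checked against sequence, and the window is called by its position. Strands are those of the placement, and their relation to the RNA's own strand is not given in the labels.

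Run depth set how finely each value could be read. Runs held 33473 to 1375332 lines, and the window 215 (8-cell run 1.1) to 204073 lines (8-cell run 2). Intervals given as 95% are exact Clopper-Pearson intervals. They hold counting error alone, because copies made by amplification were not told from separate molecules. By a short fragment shared in their read names the 11 files fall into 7 groups, which are taken here as sequencing runs. Below, a shared sequencing run means a shared fragment and nothing more. Of the 7 groups, 3 hold more than 1 stage. Blastocyst run 1.2 shares one with oocyte runs 1.1 and 2, 8-cell run 1.2 shares one with oocyte run 1.2, and 8-cell run 2 shares one with 2-cell run 2.

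The window took 9.98%, 13.6% and 17.02% of the lines of oocyte runs 1.1, 1.2 and 2. In 2-cell runs 1 and 2 it took 2.19% and 6.80%, and in 8-cell runs 1.1, 1.2 and 2 it took 0.418%, 2.28% and 17.7%. In blastocyst runs 1.1, 1.2 and 2 it took 4.59%, 14.5% and 4.43%. The stage means, with runs weighted equally, were 13.5%, 4.49%, 6.78% and 7.84% from oocyte to blastocyst. Both 2-cell runs lay below all oocyte runs, and the 8-cell and blastocyst runs overlapped those of the oocyte.

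The 8-cell runs spanned the whole range seen in the series. Run 1.1 had 0.418% (95% interval 0.364% to 0.478%) and run 2 had 17.7% (17.6% to 17.7%). Without run 2 the 8-cell mean was 1.35%. Within shared sequencing runs the order of stages also differed. 8-cell run 2 stood at 17.7% against 6.80% in 2-cell run 2, while 8-cell run 1.2 stood at 2.28% against 13.6% in oocyte run 1.2. Blastocyst run 1.2, at 14.5%, lay between oocyte run 1.1 at 9.98% and oocyte run 2 at 17.02%.

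Of all lines on chromosome 17, the window held 71.5%, 73.8% and 88.4% in oocyte runs 1.1, 1.2 and 2. The 2-cell runs had 41.3% and 68.02%. It held 8.35%, 41.2% and 80.6% of them in 8-cell runs 1.1, 1.2 and 2. Blastocyst runs 1.1, 1.2 and 2 had 60.1%, 90.04% and 64.3%. By share of lines it had rank 1 among the 10-kb windows of the genome in 7 of 11 runs, rank 3 in blastocyst run 2, rank 5 in 2-cell run 1 and in 8-cell run 1.2, and rank 26 in 8-cell run 1.1.

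The authors' table of read counts per repeat family was set beside the window. Both may count the same reads, so the table is no independent readout. Its rRNA family took 44.9%, 13.99% and 10.3% of counts in the columns named for oocyte runs 1.1, 1.2 and 2, and 4.53% and 12.8% in those of the 2-cell runs. It took 0.807%, 3.81% and 26.5% in the 8-cell columns and 8.52%, 18.4% and 10.01% in the blastocyst columns. In 9 runs the window held 0.450 to 0.716 lines per rRNA count. In oocyte run 1.1 it held 0.107 (27169 lines, 252963 rRNA counts), and in oocyte run 2 it held 2.08 (80681 lines, 38791 rRNA counts). In oocyte run 2 the window therefore held more lines than the rRNA family has counts.

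With the columns of oocyte runs 1.1 and 2 exchanged, a reading tried after the values were seen, the same quantity was 0.700 lines per rRNA count for run 1.1 and 0.319 for run 2. The value for run 1.2 is 0.698. Table totals per line of the run were 2.07 for oocyte run 1.1 and 0.797 for oocyte run 2 as named, and 1.39 and 1.19 after the exchange, against 0.947 to 1.40 in the other 9 runs. Over the 47 families the column named for run 2 shared 93.2% of its counts with that of run 1.2, where the column named for run 1.1 shared 63.6%. Read starts in the window grouped the oocyte runs the other way, with an overlap of 75.3% between runs 1.1 and 1.2 and 38.8% between runs 2 and 1.2. Whether column names were exchanged was not tested, and rRNA shares of these oocyte columns are given only as named.

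**Figure D1:**
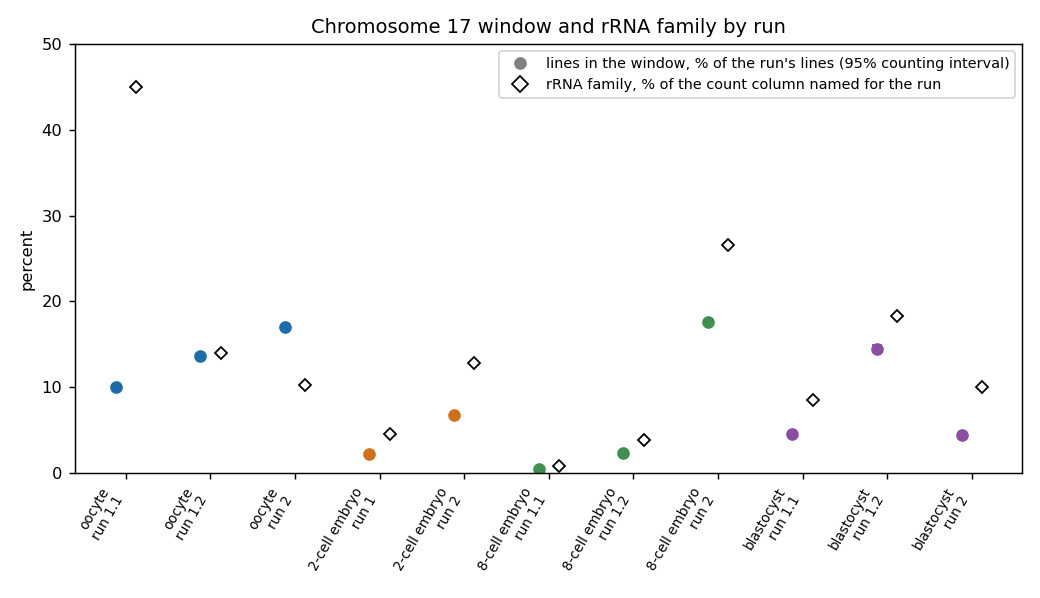
Share of each run's lines in the chromosome 17 window (filled circles, percent, 95% counting intervals) and share of the rRNA family in the count column named for that run (open diamonds, percent), for 11 runs of 4 stages. The diamond lies above the circle in 10 of the 11 runs and below it in oocyte run 2.

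The other RNA gene families were small beside rRNA in every column. Transfer RNA took 1.07% of counts in 8-cell run 2 and at most 0.191% in the other runs. Small cytoplasmic RNA took at most 0.705%, in the column of oocyte run 1.1.

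Starts were not spread over the window. Of the 10 kb, 6 kb held no start in any run, and 530354 lines lay in 39983001 to 39985000. Neighbouring starts of 1 strand were joined into a cluster where their positions, over all runs combined, differed by no more than 20 bp. On the minus strand a lower cluster ran over 371 bases from 39983301 to 39983671 with 103851 lines. An upper cluster ran over 1119 bases from 39984050 to 39985168 with 392508 lines. Together they held 93.3% of the window's lines. The 378 bases between them held 10931 minus-strand and 1911 plus-strand lines.

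At the lower edge the window cuts through reads. The first kb inside it held 518 lines, of which 507 were from 8-cell run 2, all between 39980029 and 39980132. The kb just outside, from 39979001 to 39980000, held 1372 lines, of which 862 were from 8-cell run 2 and 486 from oocyte run 2. At the upper edge there was no start within 4 kb inside the window and 1 line within 10 kb outside it.

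The lower cluster took 14.3%, 12.7% and 45.2% of window lines in oocyte runs 1.1, 1.2 and 2. The 2-cell runs had 33.8% and 17.7%. In 8-cell runs 1.1, 1.2 and 2 it took 47.4%, 35.5% and 14.2%, and in blastocyst runs 1.1, 1.2 and 2 it took 70.6%, 66.4% and 29.8%. Its share exceeded that of the upper cluster in 3 of 11 runs, namely 8-cell run 1.1 and blastocyst runs 1.1 and 1.2. In 8-cell run 1.1 the shares were 47.4% (40.6% to 54.3%) and 46.5% (39.7% to 53.4%), a difference within counting error. The runs of every stage overlapped those of another stage. In the sequencing run they share, blastocyst run 1.2 had 66.4% against 14.3% and 45.2% in oocyte runs 1.1 and 2.

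As shares of all lines of a run, the clusters did not move together. The lower cluster took 7.69% of oocyte run 2, against 1.43% and 1.72% of runs 1.1 and 1.2, while the upper cluster took 7.81%, 7.83% and 10.9% of runs 2, 1.1 and 1.2. Blastocyst run 1.2 had 9.64% in the lower and 4.57% in the upper cluster, and 8-cell run 2 had 2.50% and 14.1%.

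**Figure D2:**
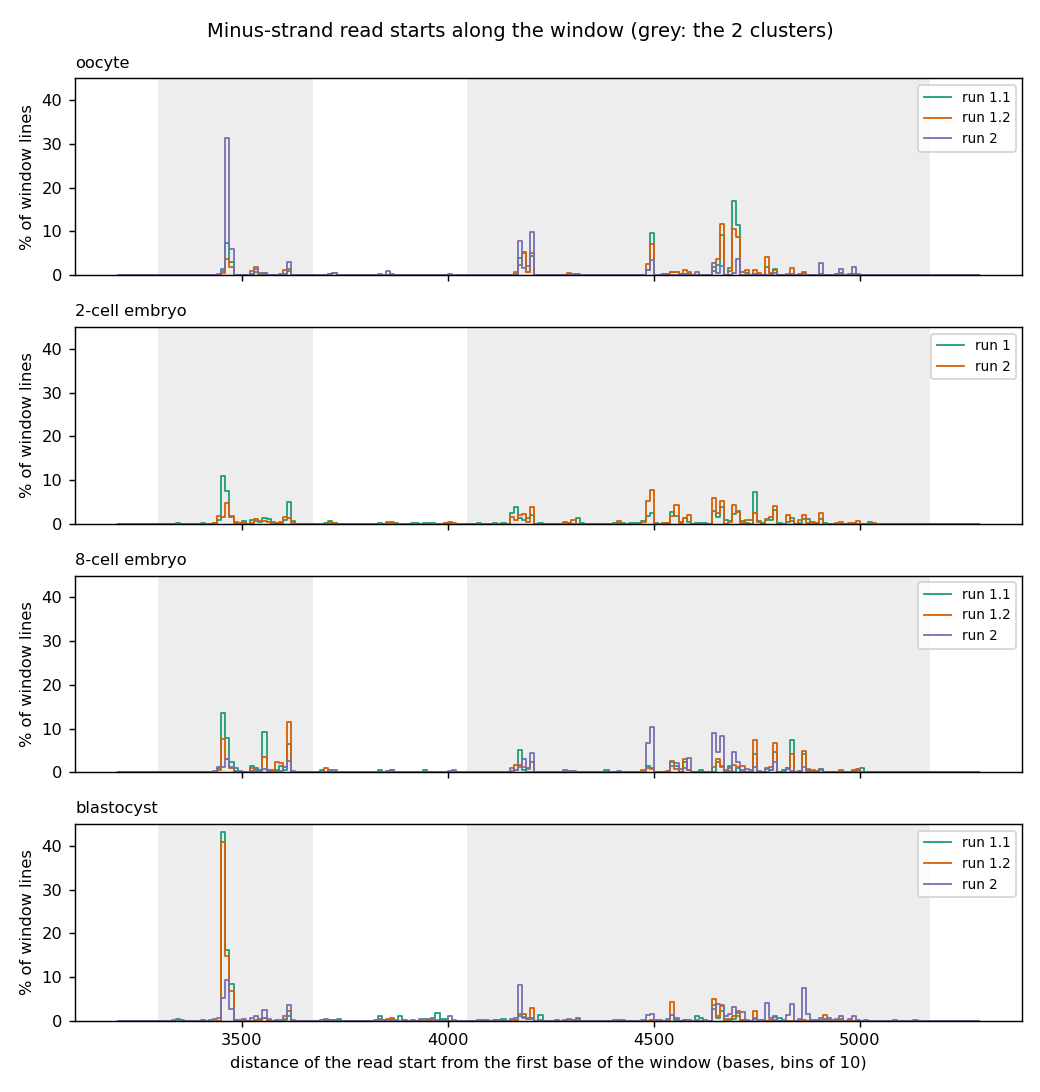
Minus-strand read starts along the window in bins of 10 bases, as percent of the run's window lines (vertical axis) against distance from the first base of the window (horizontal axis), with 1 panel per stage and 1 line per run; grey bands mark the lower and the upper cluster. Oocyte run 2, 2-cell run 1, 8-cell runs 1.1 and 1.2 and the 3 blastocyst runs have their highest bin in the lower cluster, and oocyte runs 1.1 and 1.2, 2-cell run 2 and 8-cell run 2 have theirs in the upper one.

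Short stretches held much of the window in some runs and less in others. The 30-base stretches with the highest mean share over all runs were ranked without overlap, and their ranks were fixed by these same values. The first 5 together held 30.2% of window lines (8-cell run 1.2) to 82.1% (blastocyst run 1.2), and under 50% in 4 of the 11 runs, namely 2-cell run 1, 8-cell runs 1.1 and 1.2 and blastocyst run 2. The first, from 39983447 to 39983476 in the lower cluster, averaged 24.9% of window lines over the 11 runs. It took 10.8%, 5.79% and 38.8% in oocyte runs 1.1, 1.2 and 2, 20.6% and 9.47% in the 2-cell runs, 23.3%, 11.8% and 5.91% in 8-cell runs 1.1, 1.2 and 2, and 67.6%, 62.4% and 17.5% in blastocyst runs 1.1, 1.2 and 2. Blastocyst runs 1.1 and 1.2 stood above all others, and blastocyst run 2 lay inside the range of the earlier stages.

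The other 4 stretches all lay in the upper cluster. The stretch from 39984644 to 39984673 averaged 10.4% and ranged from 3.72% (8-cell run 1.1) to 22.1% (8-cell run 2). The stretch from 39984689 to 39984718 took 30.7% and 20.9% of oocyte runs 1.1 and 1.2 but 4.38% of oocyte run 2, and 1.70% to 7.90% of the embryo runs. The stretch from 39984173 to 39984202 took 13.6%, 13.2% and 19.8% of oocyte runs 1.1, 1.2 and 2, above the 2.93% to 9.02% of the 8 embryo runs. The stretch from 39984472 to 39984501 took 17.1% of 8-cell run 2, 13.3% of 2-cell run 2 and 11.03% of oocyte run 1.1, and 0.160% and 0.165% of blastocyst runs 1.1 and 1.2.

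At single bases the runs differed in how they used the first stretch, within stages as well as between them. In all 3 oocyte runs its first position was 39983467, with 33.6%, 30.2% and 40.9% of the stretch's lines in runs 1.1, 1.2 and 2. The neighbouring base 39983466 followed with 21.6%, 23.4% and 29.0%. In blastocyst runs 1.1 and 1.2 the first position was 39983458, with 35.0% and 33.9%, followed by 39983457 with 24.5% and 26.7%. These bases lie 9 bp lower than the oocyte pair. In these blastocyst runs 39983467 had 1.73% and 1.78%, but 39983466 still had 14.4% and 13.5%. In the oocyte runs 39983458 had 1.90%, 1.81% and 0.792%.

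In 8-cell runs 1.1 and 1.2 the first positions were 39983456 with 15 of 50 lines and 39983455 with 82 of 222 lines. In 2-cell run 1 and blastocyst run 2 it was 39983470, with 25.5% and 33.7%. 2-cell run 2 and 8-cell run 2 were led by the same pair of bases as the oocyte runs, at lower shares. Positions 39983467 and 39983466 had 14.5% and 15.1% of the stretch in 2-cell run 2, and 18.5% and 16.7% in 8-cell run 2. Blastocyst run 1.2 differed in this from oocyte runs 1.1 and 2, with which it shares a sequencing run.

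**Figure D3:**
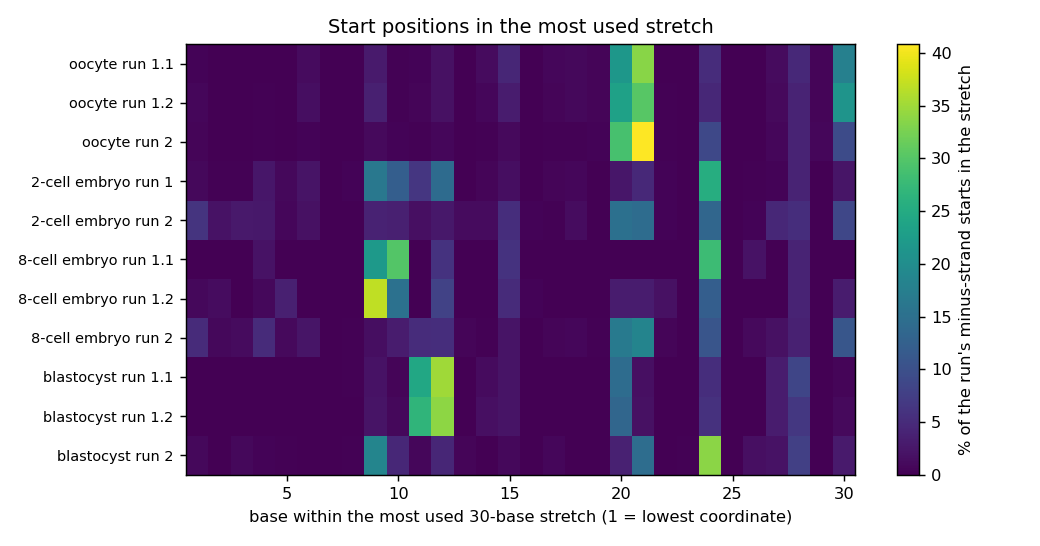
Minus-strand starts at each base of the 30-base stretch with the highest mean share (horizontal axis, base 1 is 39983447), as percent of the run's starts in that stretch (colour), for 11 runs in rows. The 3 oocyte runs are brightest at base 21, blastocyst runs 1.1 and 1.2 at base 12, and blastocyst run 2 at base 24.

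The window had 9 different most used positions over the 11 runs, all on the minus strand. Position 39984692 led in oocyte run 1.1 with 2378 lines, 8.75% of window lines, and 39984663 in oocyte run 1.2 with 9831 lines (5.24%). Position 39983467 led in oocyte run 2 with 12792 lines (15.9%). In the 2-cell runs 39983470 led with 273 lines (5.26%) and 39984494 with 588 lines (4.08%). In 8-cell runs 1.1, 1.2 and 2 the leaders were 39983553 with 20 lines (9.30%), 39983611 with 194 lines (10.3%) and 39984648 with 12583 lines (6.17%).

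Blastocyst runs 1.1 and 1.2 shared their first position, 39983458, with 445 lines (23.7%) and 1026 lines (21.1%). Blastocyst run 2 was led by 39983470 with 250 lines (5.90%). Position 39983458 stood at 0.778% there, and at 0.206%, 0.105% and 0.307% in oocyte runs 1.1, 1.2 and 2. It reached 2.93% in 2-cell run 1 and 0.250% in 2-cell run 2, and 1.40%, 0.957% and 0.312% in 8-cell runs 1.1, 1.2 and 2. High use of this base was thus a property of 2 of the 3 blastocyst runs.

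Position 39984494 ran the other way. It took 5.99%, 3.15% and 1.08% of window lines in oocyte runs 1.1, 1.2 and 2, 1.18% and 4.08% in the 2-cell runs, and 5.30% in 8-cell run 2. It had 9 lines (0.479%) in 8-cell run 1.2 and 8 lines (0.189%) in blastocyst run 2. No line started there in blastocyst runs 1.1 and 1.2, where 3 lines would be 0.160% and 0.0618% of the window, or in 8-cell run 1.1, where 3 lines would be 1.40%.

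Several further positions set 8-cell runs 1.1 and 1.2 and 2-cell run 1 apart from run 2 of their stages. Position 39983611 took 10.3% of 8-cell run 1.2, 5.58% of 8-cell run 1.1 and 4.26% of 2-cell run 1, against 1.86% of 8-cell run 2 and 1.01% of 2-cell run 2. Position 39984749 took 4.52%, 1.86% and 4.61% in the same 3 runs, against 0.449% of 8-cell run 2 and 0.687% of 2-cell run 2. In 8-cell run 1.1, with 215 window lines, 3 lines would be 1.40%, so its 1.86% rests on few lines. Position 39984835 took 7.44% of 8-cell run 1.1 and 3.72% of run 1.2, against 0.215% of run 2, and 3.37% of blastocyst run 2.

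Of the other positions high in the oocyte, 39984201 took 2.92%, 3.73% and 6.38% of window lines in oocyte runs 1.1, 1.2 and 2, against at most 3.39% (2-cell run 2) in the embryo runs. Position 39984702 took 5.72%, 4.27% and 1.53% in the same oocyte runs and at most 1.89% (2-cell run 1) in the embryo runs. Position 39983474 took 5.74%, 4.12% and 1.34% in blastocyst runs 1.1, 1.2 and 2. It reached 1.55% in oocyte run 2, above blastocyst run 2.

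As whole profiles, runs 1.1 and 1.2, which share their first number, were closer to each other than to run 2 of their stage. Overlap was computed by taking, at each position, the smaller of the shares of window lines in both runs, and adding these up. It was 75.3% for oocyte runs 1.1 and 1.2, 77.4% for blastocyst runs 1.1 and 1.2 and 51.2% for 8-cell runs 1.1 and 1.2, the last with 215 lines in run 1.1. At unequal depth some pairs of different stages overlapped more than that 8-cell pair, such as oocyte run 1.2 and 8-cell run 2 at 57.9%. With every run thinned to 215 window lines the 8-cell pair had 47.9% and the latter pair 41.9%. No pair of different stages then exceeded 47.9%. Run 2 of the same stage overlapped with runs 1.1 and 1.2 by 41.9% and 38.8% in the oocyte, 18.8% and 34.9% in the 8-cell embryo and 21.8% and 24.8% in the blastocyst. The labels do not say what the first number stands for.

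Run 2 of the 8-cell embryo was closest to 2-cell run 2, at 69.7%, with which it shares a sequencing run. 2-cell run 1 was closest to 8-cell run 1.2, at 51.4%, and blastocyst run 2 to 2-cell run 1, at 46.4%. For 6 of the 11 runs the closest profile was one of the same stage. These were runs 1.1 and 1.2 of the oocyte and of the blastocyst, 8-cell run 1.1, and oocyte run 2. The last was closest to oocyte run 1.1, with which it shares a sequencing run. The median overlap was 40.3% over the 10 pairs within stages (18.8% to 77.4%) and 32.1% over the 45 pairs between stages (13.2% to 69.7%). The 5 pairs that share a sequencing run had a median of 34.8% (26.3% to 69.7%). At the low end, oocyte run 1.1 and blastocyst run 1.2 overlapped by 26.3% and oocyte run 1.2 and 8-cell run 1.2 by 29.4%. With every run thinned to 215 window lines the pairs within and between stages had medians of 29.8% and 24.7%.

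A small set of bases was used everywhere. Starts fell at 1767 positions, counting strands separately, of which 1130 were on the minus strand and 637 on the plus strand. 354 positions were used at all 4 stages and 25, all on the minus strand, in all 11 runs. Those 25 held 15.2% (oocyte run 2) to 55.3% (8-cell run 1.1) of window lines. 648 positions were used at a single stage, 316 of them in the oocyte, but held at most 2.87% of a run's window lines, in blastocyst run 1.1. The oocyte contributed 295301 of the 532039 lines, and these numbers of positions were not adjusted for depth.

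At equal depth, the spread of starts differed between runs. With each run thinned to 215 window lines, oocyte runs had 77 to 89 distinct positions and 2-cell runs 103 and 111. The 8-cell runs had 87 to 92, and blastocyst runs 1.1, 1.2 and 2 had 58, 45 and 105. Without thinning, so at unequal depth, the 10 most used positions held 68.3% and 67.4% of window lines in blastocyst runs 1.1 and 1.2 but 32.3% in run 2, and 25.3% to 53.0% in the runs of the other stages. 80% of minus-strand starts spanned 1184 to 1401 bases in the 11 runs, a range that reaches from 1 cluster into the other.

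The strand split differed between stages. The plus strand took 6.21%, 5.70% and 6.45% of window lines in oocyte runs 1.1, 1.2 and 2, from 1688, 10684 and 5205 lines. It took 1.73% and 1.76% in the 2-cell runs (90 and 254 lines) and 3.72%, 3.24% and 3.04% in 8-cell runs 1.1, 1.2 and 2 (8, 61 and 6201 lines). In blastocyst runs 1.1, 1.2 and 2 it took 0.319%, 0.700% and 0.0944%, from 6, 34 and 4 lines. The ranges of the 4 stages did not overlap, with the oocyte highest and the blastocyst lowest. The interval of 8-cell run 1.1, 1.62% to 7.20%, does span the oocyte and 2-cell values.

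Over the whole window the same order of stages held where a sequencing run was shared. Blastocyst run 1.2 had 0.700% against 6.21% and 6.45% in oocyte runs 1.1 and 2, 8-cell run 1.2 had 3.24% against 5.70% in oocyte run 1.2, and 8-cell run 2 had 3.04% against 1.76% in 2-cell run 2. In the upper cluster alone the plus strand took 6.10% to 7.20% in oocyte runs, 1.70% and 2.67% in 2-cell runs, 3.47% to 5.66% in 8-cell runs and 0.108% to 0.585% in blastocyst runs. In the lower cluster that order did not hold. The plus strand took 1.94% to 3.08% there in oocyte runs, 0% and 1.74% in 2-cell runs 1 and 2, 0.971%, 1.62% and 0.551% in 8-cell runs 1.1, 1.2 and 2, and 0.150%, 0.309% and 0% in blastocyst runs 1.1, 1.2 and 2. A count of 0 allows up to 0.171% in 2-cell run 1 and 0.238% in blastocyst run 2. There 8-cell run 2 lay below 2-cell run 2, with which it shares a sequencing run. Over all placements outside the window together the plus strand took 43.6% (blastocyst run 1.2) to 66.1% (oocyte run 2) of lines. Single windows elsewhere could be as one-sided as this one, as given below.

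The largest cluster of plus-strand starts ran from 39984917 to 39985131, opposite the upper end of the upper cluster, with 8514 lines. It took 3.17%, 2.63% and 1.34% of window lines in oocyte runs 1.1, 1.2 and 2. It took 1.54% and 0.285% in 2-cell runs 1 and 2, whereas 8-cell runs 1.1, 1.2 and 2 had 1.86%, 1.70% and 0.728%. In blastocyst runs 1.2 and 2 it took 0.0206% and 0.0708%, and blastocyst run 1.1 had no line there, where 3 lines would be 0.160%. All blastocyst runs lay below the runs of the other stages.

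The gap between the 2-cell embryo and the blastocyst rests in part on 1 base. Position 39984961 on the plus strand gave 57 of the 90 plus-strand lines of 2-cell run 1, and 22 of 61 in 8-cell run 1.2, against 1 line in 2-cell run 2 and none in the blastocyst runs. Without the most used plus-strand position of each run, a setting added after the values were seen, 2-cell runs 1 and 2 had 0.643% and 1.65% and blastocyst runs 0.0708% to 0.536%. Among lines with a score of at least 20, 2-cell run 1 had 0.556%, below blastocyst run 1.2 at 0.653%.

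In the oocyte position 39984966 on the plus strand led by mean share of window lines, with 241, 1120 and 237 lines in runs 1.1, 1.2 and 2. It had 334 lines in 8-cell run 2 and 15 in 2-cell run 2. No line started there in the blastocyst runs, in 2-cell run 1 or in 8-cell runs 1.1 and 1.2. Position 39983829, the first on the plus strand in the blastocyst, had 2 and 8 lines in blastocyst runs 1.1 and 1.2 and none in run 2, and 13, 72 and 217 lines in oocyte runs 1.1, 1.2 and 2.

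**Figure D4:**
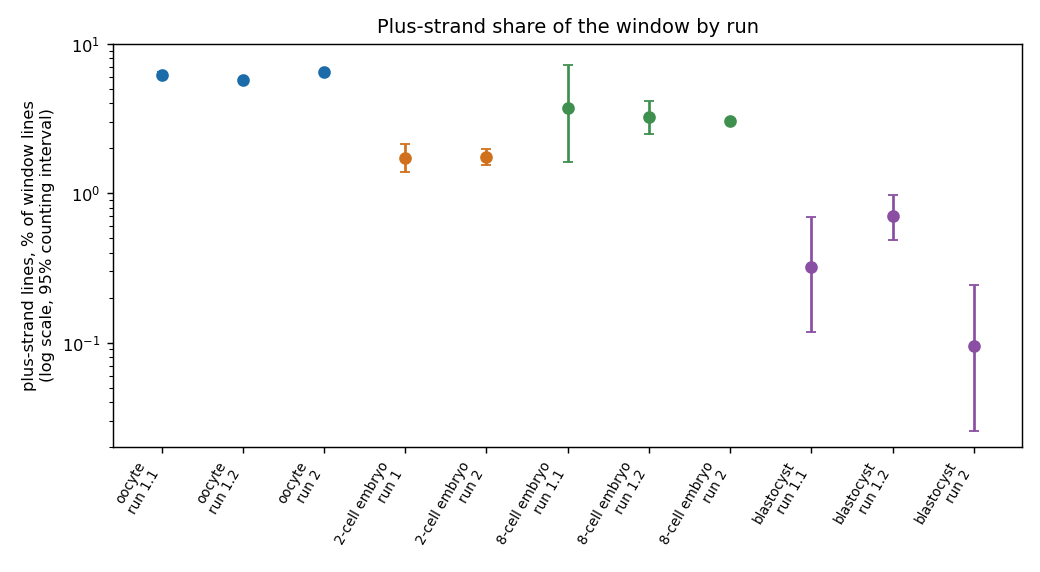
Plus-strand lines as percent of window lines (vertical axis, log scale) with 95% counting intervals for 11 runs of 4 stages. Oocyte runs lie between 5.70% and 6.45%, and blastocyst runs between 0.0944% and 0.700%.

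Scores divided the clusters. The files give each placement a score from 1 to 99 whose scale is not stated. On the minus strand the median score was higher in the lower than in the upper cluster in all 11 runs. The medians were 62, 99 and 60 against 30, 30 and 27 in oocyte runs 1.1, 1.2 and 2, and 55 and 79 against 23 and 30 in the 2-cell runs. They were 40, 67 and 79 against 16, 27 and 30 in the 8-cell runs, and 16, 99 and 19 against 5, 27 and 11 in blastocyst runs 1.1, 1.2 and 2.

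The values 27 and 30 filled much of the upper cluster in several runs. Scores of exactly 27 or 30 made up 85.02% of its minus-strand lines in oocyte run 1.2, 78.3% in 8-cell run 2 and 77.5% in 2-cell run 2, against 0.316%, 0.564% and 0.629% of those of the lower cluster. In the rest of those runs, outside the window, they made up 13.8%, 12.7% and 12.01%. Scores under 5 made up 29.0% of window lines in blastocyst run 2 and 21.3% in blastocyst run 1.1, against 4.59% and 5.89% of the rest of those runs. They were also commoner in the window in 8-cell run 1.1 (14.4% against 1.58%), 2-cell run 1 (12.5% against 2.94%) and oocyte run 2 (5.27% against 3.87%). In blastocyst run 1.2 and in oocyte runs 1.1 and 1.2 they were rarer in the window, with 0.494%, 0.291% and 0.0880% against 2.88%, 2.37% and 1.28% of the rest. The same held for 2-cell run 2 (0.493% against 0.938%) and 8-cell run 2 (0.417% against 0.867%). 8-cell run 1.2 had 1.38% against 1.32%. Median scores outside the window ran from 15 in blastocyst run 2 to 54 in 8-cell run 2.

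Median scores of single positions were alike between some runs and apart between others. Position 39983467 had a median score of 60 in all 3 oocyte runs, in 2-cell run 2 and in 8-cell runs 1.2 and 2, 59 in 2-cell run 1, and 13, 58.5 and 15 in blastocyst runs 1.1, 1.2 and 2. Position 39983466, 1 base away, had 57 in the same 6 runs, 20 in 2-cell run 1 and 56 in blastocyst run 1.2. Position 39983553 had medians of 99, 99 and 30 in oocyte runs 1.1, 1.2 and 2, and 39984835 had 56, 60 and 40. Position 39983458 had 99 in all oocyte runs and in blastocyst run 1.2, and 16 in blastocyst run 1.1, where it took nearly the same share of lines.

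**Figure D5:**
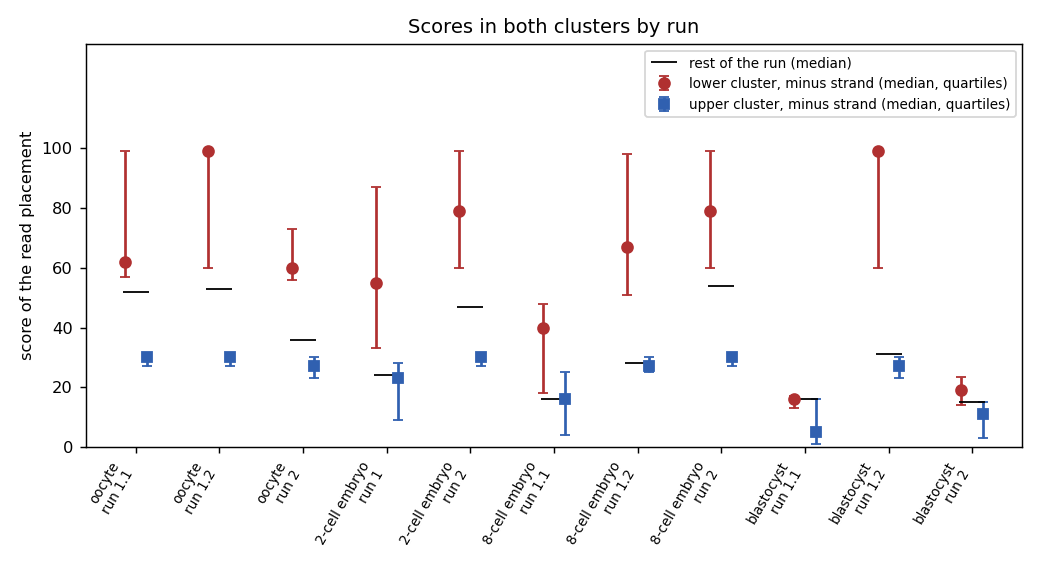
Median score of minus-strand lines with quartiles (vertical axis) in the lower cluster (circles) and the upper cluster (squares) for 11 runs, with the median of the rest of the run as a bar. The circle lies above the square in every run, and both are low in blastocyst runs 1.1 and 2.

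No read was listed more than once in the window. In every run 0 lines of the window repeated another line or carried the name of a read placed elsewhere in that file, whereas 1.97% to 5.28% of the other lines were exact repeats.

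The next 3 windows by mean share over runs lay on chromosome 8 (106310001 to 106320000), chromosome 1 (124250001 to 124260000) and chromosome 11 (108870001 to 108880000), with means of 1.36%, 1.31% and 0.960% of lines against 8.50% for the chromosome 17 window. The chromosome 17 window had 1199 distinct positions in 8-cell run 2, where these windows had 13, 29 and 261. Its most used position took 6.17% of its lines there, against 39.2%, 60.7% and 9.19%. That run held the most lines of the chromosome 17 window. The difference from the chromosome 11 window varied between runs, with 15.9% against 16.9% in oocyte run 2 and 8.75% against 42.2% in oocyte run 1.1. In 8-cell run 2 the more used strand held 98.7%, 99.95% and 91.6% of the lines of these windows. It held 96.96% in the chromosome 17 window. For the chromosome 1 window that share was at least 99.4% in every run, and for the chromosome 11 window it was 50.1% in oocyte run 1.1. These comparisons were not tested, and the windows differ in the number of lines.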

How the data were processed

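NanoCAGE placements were taken from 11 read files, and counts of 47 repeat families from a table of the whole series. The submitters' processing notes name build mm9 and CASAVA, without a version. The sources used here name no aligner, no repeat annotation and no rule for reads that map to several places. The deposited files hold 1 placement per line with a score of unstated scale. The deposited table holds counts of reads per family, 1 column per run per the file headers. Placement coordinates in the deposited files count from 0 and are given here counted from 1.

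Lines were counted by position and strand with Python 3.11.15, pandas 2.3.3 and numpy 2.4.6, and intervals came from scipy 1.17.1. Stage values average the runs, each weighted alike. Runs were thinned to 215 window lines with a fixed seed. The counting functions were tested on simulated placements. The window, the measures and the rule for named positions were chosen with earlier results of these data known. Named positions were the 5 highest of each stage by mean share of window lines, the first of each run, and the first on the plus strand of each stage. That rule gave 21 positions. No gene set or cell type marker applies. No sequence is shown, since no genome of build mm9 was used here.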

Additional observations from a re-analysis of the deposited data

How the results depend on the processing

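Each stage is 1 sample, so results are values with no test, and a value was counted as moved when it left the counting interval of its stage mean, or for numbers of positions when it changed over 1.5 times. No paired analysis was possible because the stages share no replicates and no test was run. With the lines of runs pooled the window took 13.9%, 4.36%, 15.98% and 6.45% of lines from oocyte to blastocyst. 8-cell run 2 held 204073 of the 206168 window lines of its stage. Among lines with a score of at least 20 the shares were 14.9%, 4.72%, 7.34% and 15.04%, so the blastocyst mean was slightly above that of the oocyte. That cut left 331 of 1880, 4595 of 4855 and 818 of 4239 window lines in blastocyst runs 1.1, 1.2 and 2. Outside the window the upper quartile of scores was 16, 57 and 17 in these runs. The cut therefore also removed most other lines of blastocyst runs 1.1 and 2. The shares were 13.9%, 4.61%, 7.08% and 8.05% with exact repeats counted once, and 11.99%, 4.05%, 6.36% and 7.40% of the count table's totals. With the oocyte columns of runs 1.1 and 2 exchanged, added after seeing the data, that oocyte value was 10.4%. In runs that share a sequencing run with another stage, oocyte run 1.2 had 13.6% and 8-cell run 1.2 had 2.28%, 8-cell run 2 had 17.7% and 2-cell run 2 had 6.80%, and blastocyst run 1.2 had 14.5%. Leaving out 1 run gave 11.8% to 15.3%, 2.19% to 6.80%, 1.35% to 9.97% and 4.51% to 9.55% in stage order. Using the last base of the read, or only the 4th to 6th kb, moved no stage beyond its counting interval.

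The minus strand took 93.9%, 98.3%, 96.7% and 99.6% of window lines. It took 94.0% in the oocyte with lines pooled, and 98.8% and 99.8% in the 2-cell embryo and blastocyst at scores of at least 20. Without the most used plus-strand position of each run, added after seeing the data, the oocyte had 94.5% and the 2-cell embryo 98.9%. Leaving out 1 run gave 93.7% to 94.0%, 98.2% to 98.3%, 96.5% to 96.9% and 99.5% to 99.8%, ranges that do not overlap between stages.

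The most used position took 9.95%, 4.67%, 8.60% and 16.9%. At scores of at least 20 it took 10.6%, 5.53%, 10.5% and 28.6%, and with lines pooled 5.78%, 3.31%, 6.11% and 13.7%. The largest cluster of each run, averaged over the runs of a stage, took 68.2%, 70.4%, 62.2% and 67.5%. It was the lower cluster in some embryo runs and the upper cluster in all other runs. The upper cluster alone averaged 68.2%, 70.4%, 61.9% and 39.3% of window lines. For the most used position, leaving out 1 run gave 6.9986% to 12.3%, 4.08% to 5.26%, 7.73% to 9.81% and 13.5% to 22.4%. Distinct positions averaged 83.3, 107, 90 and 69.3 with runs thinned. They averaged 888, 464, 505 and 304 with no thinning, and 35.3, 44.0, 35.0 and 30.3 when only positions with at least 2 lines were kept. Leaving out 1 run gave 80.5 to 86.5, 103 to 111, 89.0 to 91.5 and 51.5 to 81.5.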
